A study of Homo sapiens with 4 samples.

Results

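The genes described here encode the chaperones that fold proteins in the cytosol, with their helpers and the factors that switch them on. The list held 41 genes in 7 functional groups, and its members were found as probe sets that the platform annotation gives to a single gene. Such probe sets existed for 34 of the 41 genes. Of the 34, 32 had a probe set at or above the signal filter and were measured, out of 12242 genes measured in all. HSPA2 and HSPA6 lay below the filter. HSPA1A, HSPA1B, HSPA8, TCP1 and PFDN6 appear only on probe sets that list several genes, and AHSA1 and HSF2 were not analysed here. HSPB11 was matched through its current symbol, IFT25.

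HEK293, an established human embryonic kidney line, was grown for 7 days in DMEM with serum and either 450 mg/dl glucose (high glucose, 2 arrays) or 100 mg/dl glucose (low glucose, 2 arrays). Both groups are untreated cells of the same line and differ by the labels only in the glucose of the medium. Each condition has 2 biological replicates by the labels, with no word on separate cultures, so the p-values measure only the spread between these samples. Values are linear signal units of a single-colour Affymetrix array, scaled by the authors so that the trimmed mean of each array was 200.02. In such bulk RNA, fewer cells with a transcript and less of it per cell cannot be told apart.

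Molecular chaperones bind unfolded chains and release them in cycles that most of them drive with ATP. HSP70 takes up short hydrophobic stretches, exchange factors of the HSP110 and BAG families reset it, and STIP1 passes clients on to HSP90. The ring-shaped chaperonin TRiC folds actin and tubulin inside a closed chamber, to which prefoldin delivers them. HSF1 binds heat shock elements in the promoters of many of these genes and raises their transcription when unfolded protein accumulates.

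Among the 32 measured genes, 15 were higher in high glucose, 5 were lower and 12 did not pass the test (limma, adjusted p under 0.05). Calls were common among all 12242 genes, at 57.6% in either direction, 24.3% higher and 33.3% lower. The corresponding shares of the members were 46.9% and 15.6%. Of the members called, 11 were higher by at least 1.5-fold and 1 was lower by that much, against 10.8% and 19.3% of all genes. The member median was 0.24 log2 units in high minus low glucose, and the median of all genes was -0.10. Arrays of the 2 conditions did not overlap in 27 of the 32 members, which is near the 79.8% found among all genes.

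Scaling of the arrays bears on the smaller differences. After median centring the median of all genes stood at 0.07 in place of -0.10, and 22 members were higher and 3 lower, in place of 15 and 5. Among all genes median centring called 33.1% higher and 23.2% lower. Quantile normalization gave 22 and 5 members, beside 25.6% and 30.8% of all genes. Probe sets for the bacterial poly-A spikes, control transcripts mixed into a sample ahead of labelling, were higher in high glucose by a median of 1.94 log2 units (3.84-fold). Ribosomal RNA probe sets were higher in high glucose too, by a median of 1.73 log2 units (3.31-fold, 5 of 6 probe sets). Each of the 32 members differed by less than the spike median as deposited, and the part of labelling or RNA quality in the results was not tested. Hybridisation controls had a median signal of 486 on high glucose replicate 1, 875 on high glucose replicate 2, and 869 and 891 on the low glucose arrays. Of the fixed HEK293 markers 6 of 9 were at or above the filter, KRT8 and KRT18 among them, while NEFM, INA and CDH1 were below it. Of the markers with a probe set for blood, fibroblasts, endothelium and hepatocytes, 1 of 5, 1 of 6, 1 of 4 and 0 of 3 were at or above the filter. The summed signal of the fibroblast markers, mostly COL1A1, was 400 and 385 in high glucose against 289 and 336 in low glucose, and its part in the results was not tested.

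**Figure D1:**
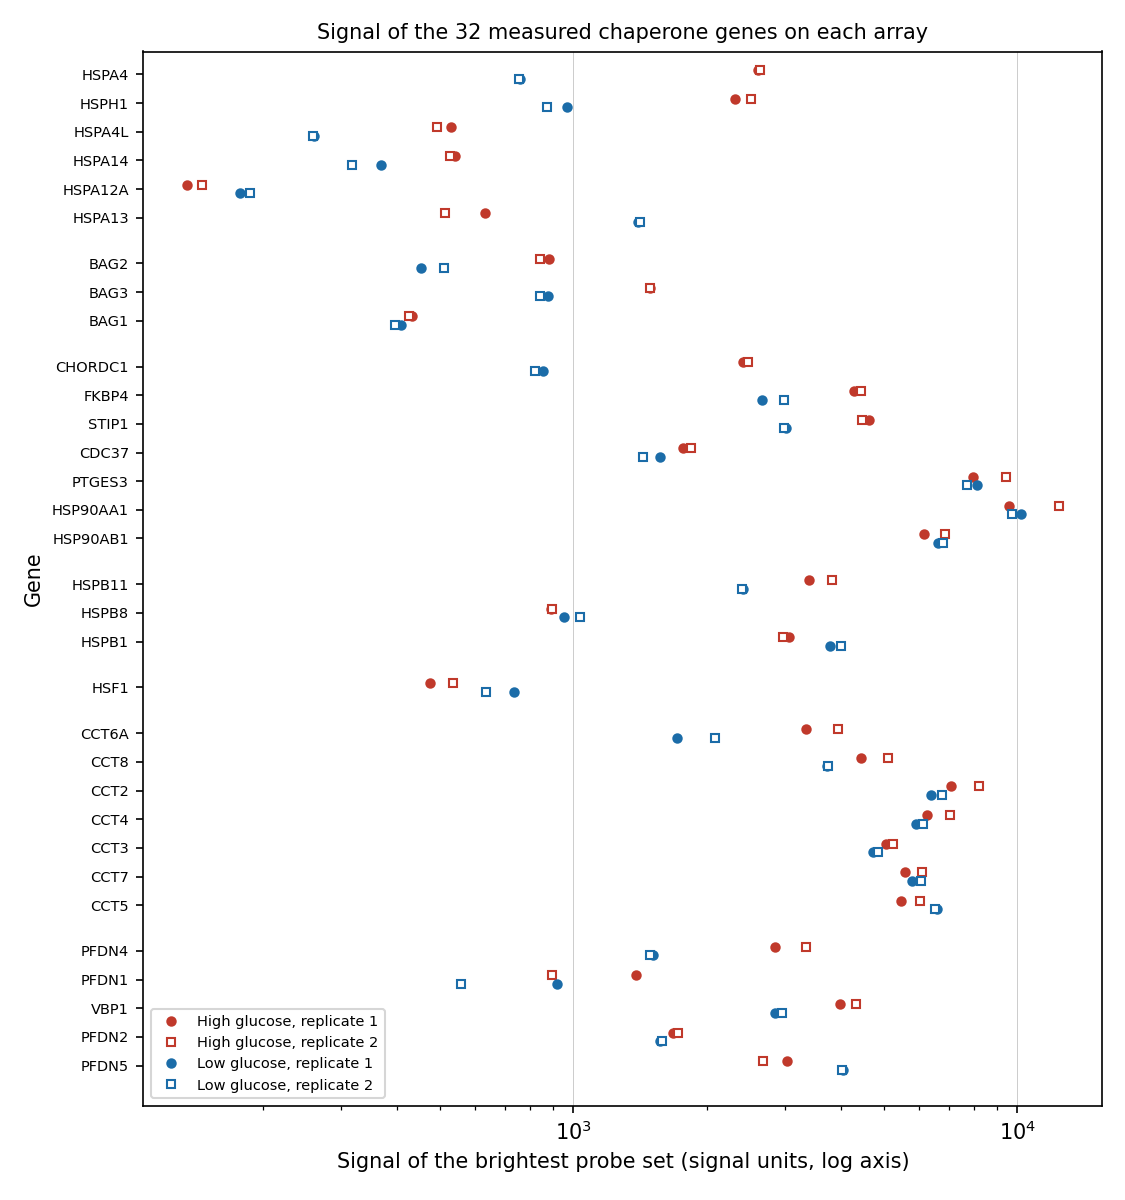
Signal of the brightest probe set of each of the 32 measured genes (x axis, signal units, log axis) on each array. Red points are the 2 high glucose arrays and blue points the 2 low glucose arrays, with circles for replicate 1 and squares for replicate 2. HSPA4 shows the widest gap, with 2605 and 2635 in high glucose against 758 and 754 in low glucose, and the HSP90AA1, HSP90AB1, PTGES3, CCT7 and PFDN1 arrays overlap between conditions.

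HSF1, the main activator of the heat shock response, was lower in high glucose. Its signal was 475 and 535 on the high glucose arrays, against 733 and 637 on the low glucose arrays. The ranges did not overlap, and the log2 difference was -0.44 ± 0.09 (SE, adjusted p = 0.0052), a 1.36-fold fall. A dimmer HSF1 probe set stood at -0.46 and did not pass (adjusted p = 0.11 in a second limma fit over 27307 probe sets). The direction of HSF1 held after median centring, at -0.27. Of 6 measured partners and regulators of heat shock factors, 2 were higher and 3 lower, beside 24.3% and 33.3% of all genes. HSBP1, a small protein that binds HSF1 and dampens it, rose 1.35-fold, and PLK1, a mitotic kinase that phosphorylates HSF1, rose 1.84-fold. SIRT1, a deacetylase of HSF1, fell 1.24-fold in high glucose and EEF1A1, a translation elongation factor also tied to the heat shock response, fell 1.30-fold.

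A heat shock element is built from alternating GAA and TTC blocks with 2 bases between them, so promoters were searched for pairs and triplets of such blocks. A pair was GAANNTTC or TTCNNGAA, each of which reads the same on both strands, and a triplet was GAANNTTCNNGAA or its reverse, TTCNNGAANNTTC. Every triplet holds overlapping pairs. The search covered the 250 bases before the start site in RefSeq promoters (GRCh38.p14), which were at hand for 35 of the 41 genes. At least 1 pair was present in 11.6% of all 35116 promoters and a triplet in 0.44%. By gene the shares were 14.0% and 0.56%, and among the 35 members 14 genes had a pair and 5 had a triplet. The genes with a triplet were CHORDC1, HSP90AA1, HSP90AB1, HSPA6 and HSPA8. Such a match is a description of the letters and no evidence of binding.

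The following promoters were picked, with the outcomes known, as examples of genes with several pairs, with 1 and with none. Capitals mark the GAA and TTC blocks of each pair, and each sequence ends at the base before the start site. CHORDC1 (chr11:90223050-90223299, minus strand) rose and holds 6 pairs and 3 triplets. HSP90AA1 (chr14:102087045-102087294, minus strand, 1 of 2 promoters listed) did not pass and holds 3 pairs and 1 triplet. HSPB1 (chr7:76302423-76302672, plus strand) fell and holds 1 pair. HSPA4 (chr5:133051763-133052012, plus strand) had the largest rise among the brightest probe sets of the measured members and holds no pair in this window.
CHORDC1: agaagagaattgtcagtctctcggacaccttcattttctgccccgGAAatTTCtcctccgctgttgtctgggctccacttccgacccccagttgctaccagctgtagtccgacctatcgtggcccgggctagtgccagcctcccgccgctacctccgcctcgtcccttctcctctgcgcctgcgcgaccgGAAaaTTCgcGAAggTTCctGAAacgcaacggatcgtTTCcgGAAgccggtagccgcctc
HSP90AA1: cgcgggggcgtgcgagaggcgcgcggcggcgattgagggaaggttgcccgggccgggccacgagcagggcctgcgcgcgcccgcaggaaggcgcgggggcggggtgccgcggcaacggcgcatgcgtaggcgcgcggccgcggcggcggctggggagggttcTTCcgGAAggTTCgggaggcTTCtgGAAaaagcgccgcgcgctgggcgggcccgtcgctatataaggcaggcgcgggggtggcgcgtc
HSPB1: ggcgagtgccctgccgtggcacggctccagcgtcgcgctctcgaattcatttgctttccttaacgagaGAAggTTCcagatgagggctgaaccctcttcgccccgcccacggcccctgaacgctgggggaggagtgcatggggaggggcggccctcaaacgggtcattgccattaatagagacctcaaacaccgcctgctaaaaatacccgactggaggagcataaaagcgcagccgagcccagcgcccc
HSPA4: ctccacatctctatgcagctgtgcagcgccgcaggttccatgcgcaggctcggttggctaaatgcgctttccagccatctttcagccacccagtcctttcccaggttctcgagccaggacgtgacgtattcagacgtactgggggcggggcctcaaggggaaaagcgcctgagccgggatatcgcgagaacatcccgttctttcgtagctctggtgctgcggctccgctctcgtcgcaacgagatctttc

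Among the 26 measured members with a promoter, a pair was present in 3 of 11 that were higher in high glucose, 1 of 4 that were lower and 4 of 11 that did not pass. The 3 higher genes with a pair were CHORDC1, BAG2 and HSPA4L. No pair was found in this window for HSPH1, BAG3, STIP1, CDC37, PFDN4, VBP1 or CCT8, which were also higher. Whether pairs and direction are related was not tested.

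The HSP110 exchange factors release ADP from HSP70 and work with it to pull apart aggregates. The measured genes of this family, HSPA4, HSPH1 and HSPA4L, were higher in high glucose, as were 24.3% of all genes. HSPA4 had 2605 and 2635 signal units in high glucose, against 758 and 754 in low glucose. Its log2 difference was 1.79 ± 0.05 (SE, adjusted p = 7.6e-07), which placed it at rank 59 of the 2970 genes called higher. The other HSPA4 probe sets were also called, at 1.67, 1.74 and 0.73 log2 units. The last of these read 459 and 401 in high glucose against 264 and 252 in low glucose, so the HSPA4 probe sets shared a direction but not a size. The brightest and those at 1.67 and 1.74 are _x_at or _s_at probe sets, which may also bind related transcripts. Without probe sets of those kinds HSPA4 stood at 0.73 and HSPH1 at 1.74, so the top place of HSPA4 rests on them.

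HSPH1, also called HSP105, had 2315 and 2515 signal units in high glucose, against 966 and 872 in low glucose. That is a 2.63-fold rise with no overlap (1.39 ± 0.07 log2 units, SE), and both further HSPH1 probe sets rose by 1.74 log2 units. HSPA4L read 531 and 492 in high glucose, against 261 and 260 in low glucose, with a log2 difference of 0.97 ± 0.08 (SE, adjusted p = 6.4e-05). Its dimmer probe set rose by 0.42 log2 units. In each of the 3 genes every probe set above the filter was called higher.

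The measured members of the HSP70 family proper, HSPA14, HSPA13 and HSPA12A, went both ways. HSPA1A, HSPA1B and HSPA8 appear only on probe sets listing several genes, so the counts and median of the group leave them out. Probe sets listing HSPA1A and HSPA1B were higher in high glucose by 2.25, 2.52 and 3.21 log2 units. Those listing HSPA8 stood between -0.16 and -0.28, and none of this signal can be assigned to a single gene. HSPA14, a ribosome-associated HSP70 relative that helps fold nascent chains, read 541 and 529 in high glucose, against 369 and 317 in low glucose (0.64 ± 0.09 log2 units, SE, adjusted p = 7.8e-04). A second HSPA14 probe set rose by 0.48, and another stood at -0.34 without passing (adjusted p = 0.054 in the probe set fit). HSPA13, known as a microsome-associated protein and so not strictly a cytosolic chaperone, was the only member with a fall of at least 1.5-fold. It read 633 and 513 in high glucose, against 1395 and 1411 in low glucose. The ranges lay far apart, with a 2.46-fold fall (-1.30 ± 0.10 log2 units, SE, adjusted p = 3.4e-05), and its dimmer probe set fell by 0.94. HSPA12A, a distant HSP70 relative, fell by 0.38 log2 units (adjusted p = 0.043), a call that was lost in 9 of 13 alternatives, with adjusted p up to 0.25.

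HSPA6, an HSP70 gene that most cells express only under strong stress, was dim. Its brighter probe set read 24.1 and 20.6 in high glucose, against 35.5 and 52.3 in low glucose, and its other probe set 15.3 and 22.7 in high glucose against 30.9 and 14.9 in low glucose. The filter used the mean of log2 signals over the 4 arrays, which for both lay below that of a signal of 32.9, so HSPA6 was not tested. The median of the HSP70 and HSP110 group was 0.81 log2 units over 6 measured genes, but 0.48 with the mean of a gene's probe sets and 0.13 with no filter, which adds HSPA2 and HSPA6. HSPA2, a testis-enriched HSP70, read 30.6 and 20.2 in high glucose, against 39.5 and 36.8 in low glucose, and was left out of that fit too. In the fit with no filter neither HSPA2 nor HSPA6 passed.

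**Figure D2:**
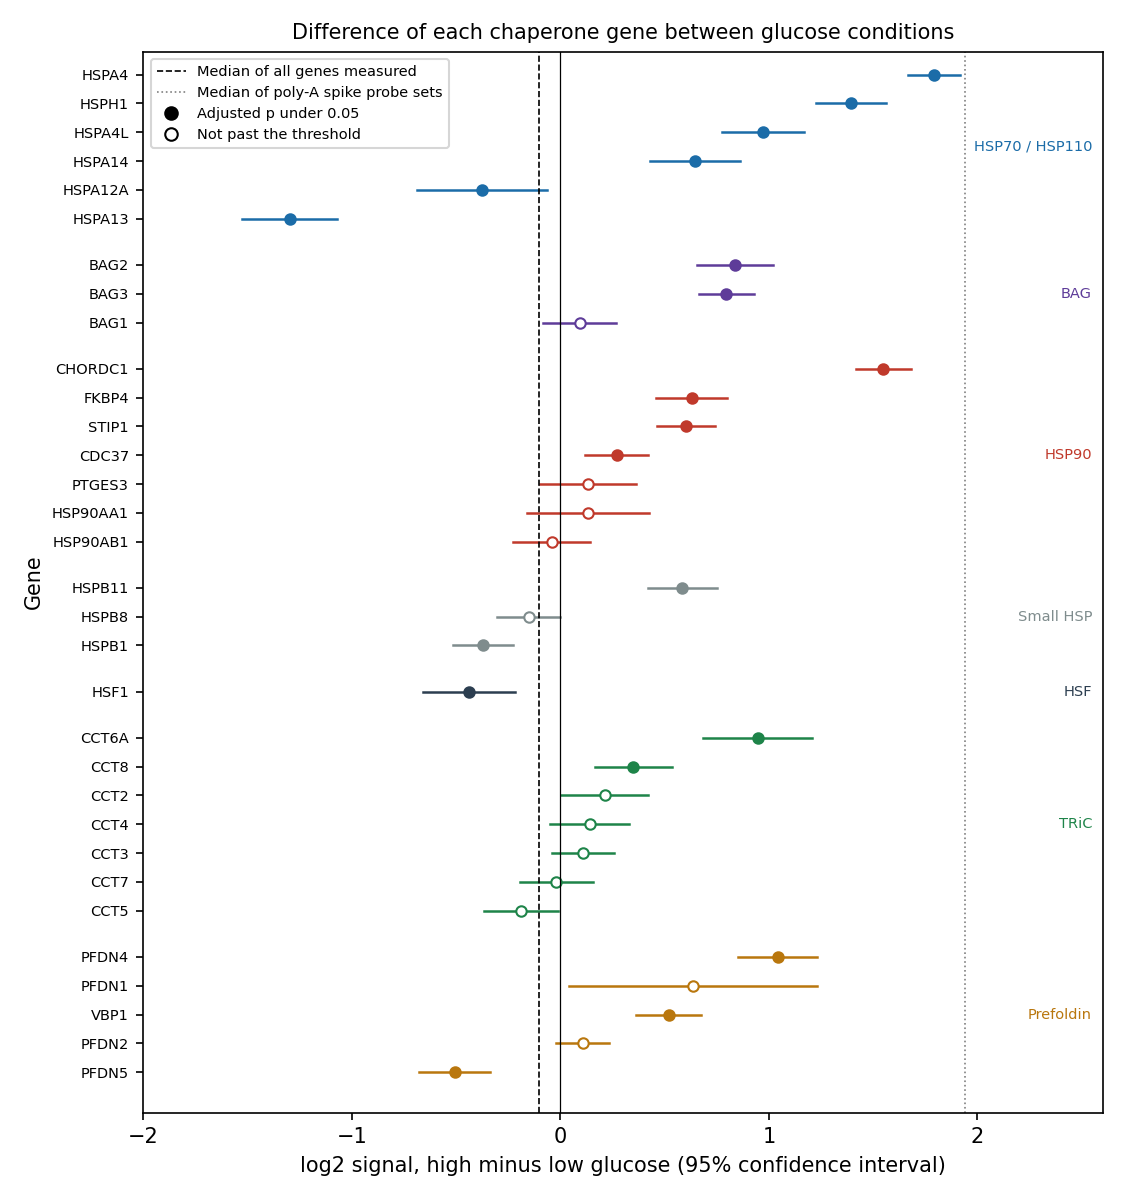
Difference in log2 signal, high minus low glucose (x axis), for each measured gene with its 95% confidence interval. Filled points passed an adjusted p of 0.05, the dashed line is the median of all genes measured (-0.10) and the dotted line the median of the poly-A spike probe sets (1.94). HSPA4, CHORDC1 and HSPH1 lie farthest to the right and HSPA13 farthest to the left, and every member lies left of the spike median.

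BAG proteins are a further family of HSP70 exchange factors. Of the 3 measured, 2 rose and 0 fell, beside 24.3% higher and 33.3% lower among all genes. BAG2, which also inhibits the ubiquitin ligase that partners HSP70, had 880 and 840 signal units in high glucose, against 454 and 512 in low glucose (0.84 ± 0.08 log2 units, SE, adjusted p = 9.4e-05). A dimmer BAG2 probe set stood at 0.28 and did not pass. BAG3, which couples HSP70 to the small heat shock protein HSPB8 and to autophagy, read 1491 and 1486 in high glucose against 875 and 841 in low glucose. Its rise was 1.74-fold with no overlap (adjusted p = 2.6e-05). BAG1 did not pass, with probe sets at 0.09, -0.16 and -0.40 log2 units.

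Within the HSP90 system the cochaperones CHORDC1, FKBP4, STIP1 and CDC37 rose, while PTGES3 and the brightest probe sets of both HSP90 genes did not pass. Of 7 measured genes 4 were higher and 0 lower, beside 24.3% and 33.3% of all genes. The group median was 0.27 log2 units (0.55 after quantile normalization and 0.44 after median centring). Without _x_at and _s_at probe sets only 4 genes of the group remained, with a median of 0.15 and 1 called higher. CHORDC1, STIP1 and CDC37 dropped out there, since all their probe sets above the filter are _s_at probe sets. CHORDC1, a zinc-binding HSP90 partner also known as morgana, had the second largest rise among the brightest probe sets of the measured members. This place rests on a single _s_at probe set. It read 2408 and 2479 in high glucose, against 854 and 817 in low glucose. Its difference was 1.55 ± 0.06 log2 units (SE, adjusted p = 1.8e-06), at rank 85 of the 2970 genes called higher.

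STIP1, which bridges HSP70 and HSP90, read 4629 and 4464 in high glucose, against 3010 and 2977 in low glucose, a 1.52-fold rise (adjusted p = 1.2e-04). FKBP4, an immunophilin of steroid receptor complexes, read 4283 and 4439 in high glucose, against 2661 and 2983 in low glucose, a 1.55-fold rise (adjusted p = 2.5e-04). Neither gene had overlapping arrays, and all further probe sets above the filter were called higher too, 1 for STIP1 at 0.75 and 3 for FKBP4 between 0.70 and 1.05 log2 units. CDC37, which brings protein kinases to HSP90, rose by 0.27 log2 units (adjusted p = 0.0088). That call was lost without low glucose replicate 2 (adjusted p = 0.054) and without the intensity trend (0.058), within a range of 5.6e-04 to 0.058 over its alternatives.

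HSP90AA1, the stress-inducible HSP90, had 9591 and 12398 signal units in high glucose in its brightest probe set, against 10189 and 9716 in low glucose. The arrays overlapped and the difference was 0.13 ± 0.12 log2 units (SE, 95% confidence interval -0.16 to 0.42, adjusted p = 0.39). Dimmer HSP90AA1 probe sets differed by 0.17 without passing and by 0.40 and 0.68 with an adjusted p under 0.05. The probe set at 0.68 read 7823 and 9147 in high glucose against 5236 and 5289 in low glucose without overlap. HSP90AA1 probe sets therefore gave no single answer, and without high glucose replicate 1 the brightest one was also called, at 0.32 (adjusted p = 0.0086). Alternatives ran from 4.2e-05 to 0.69 in adjusted p.

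HSP90AB1, the constitutive HSP90, read 6170 and 6881 in high glucose, against 6628 and 6787 in low glucose. Its difference was -0.04 ± 0.08 log2 units (SE, 95% confidence interval -0.23 to 0.14), and its other probe sets stood at 0.22 and 0.22 without passing. PTGES3, the p23 cochaperone that holds HSP90 in its closed state, stood at 0.13 (95% confidence interval -0.10 to 0.36), and without high glucose replicate 1 it was called, at 0.26. With quantile normalization all 7 genes of the HSP90 group were called higher, HSP90AB1 at 0.14 (adjusted p = 0.014). Among all genes that setting called 25.6% higher.

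Small heat shock proteins hold unfolded chains without using ATP, and the genes listed under that name shared no direction. HSPB1 and HSPB8 lay below 0 as deposited, and HSPB11 lay above it. HSPB1, or HSP27, read 3062 and 2967 in high glucose, against 3786 and 4013 in low glucose. This was a fall of 1.29-fold with no overlap (adjusted p = 0.0016), and it was not called after median centring (-0.20, adjusted p = 0.090). HSPB8, the partner of BAG3, stood at -0.15 and did not pass. HSPB11, which is better known as an intraflagellar transport subunit, rose by 0.58 ± 0.07 log2 units (SE, adjusted p = 3.3e-04). This is just under 1.5-fold, and without _x_at and _s_at probe sets HSPB11 stood at 0.55 and was not called (adjusted p = 0.059).

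**Figure D3:**
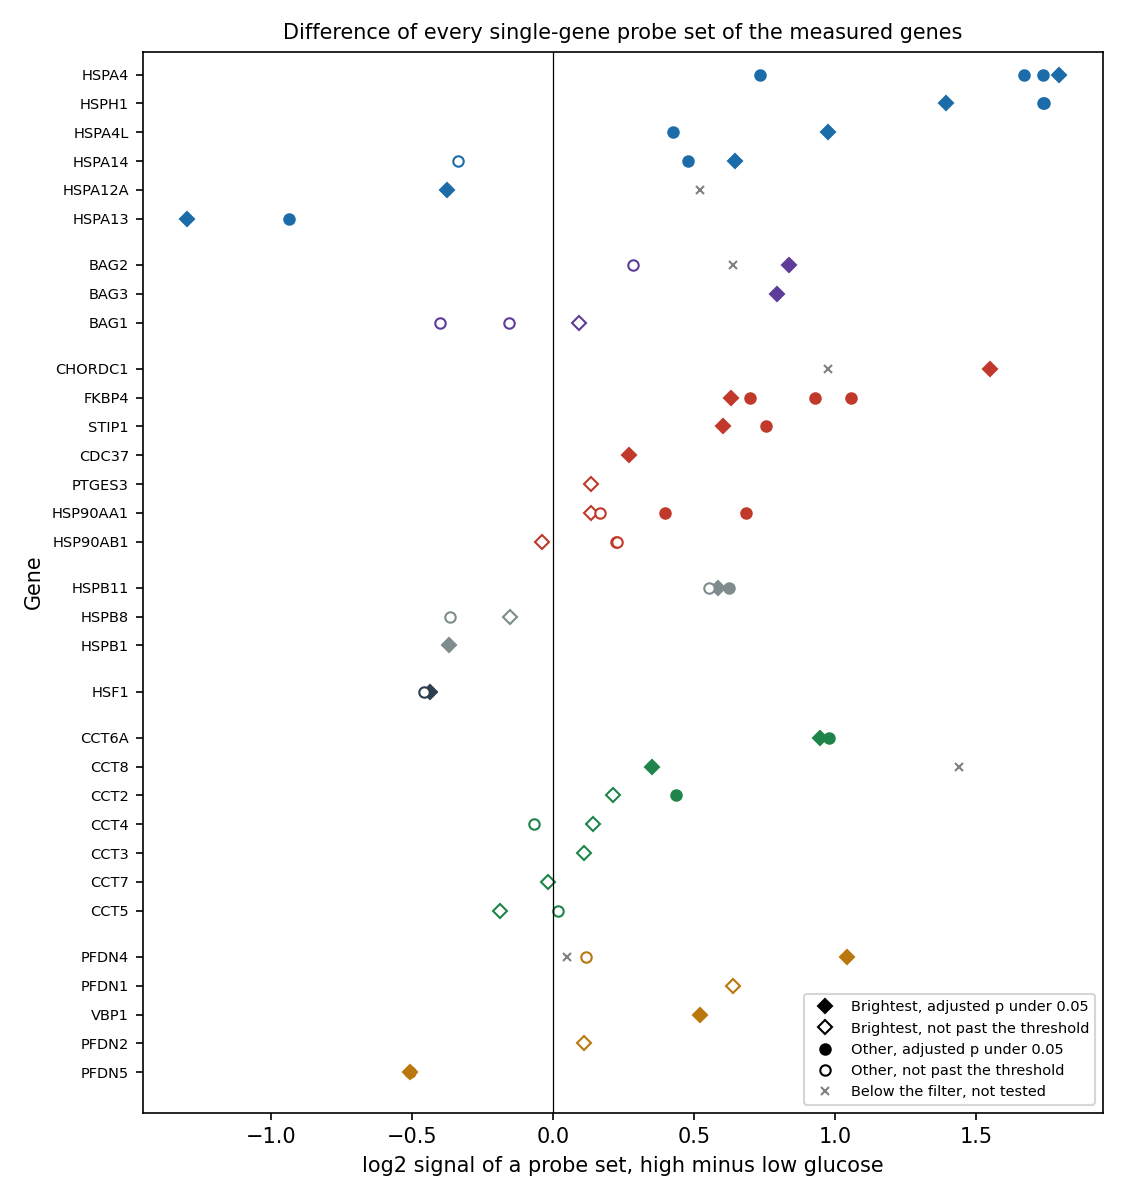
Difference in log2 signal, high minus low glucose (x axis), of every single-gene probe set of the measured genes. Diamonds are the brightest probe set of a gene, circles the others above the filter, crosses those below it, and filled symbols passed an adjusted p of 0.05. HSPA4 has 3 probe sets between 1.67 and 1.79 and another at 0.73, HSP90AA1 spreads between 0.13 and 0.68, and no gene has called probe sets on both sides of 0.

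Counted by probe set, 31 of the 63 above the filter were called higher and 7 lower, against 23.1% and 27.2% of all 27307 probe sets. Of the 20 genes with several probe sets above the filter, 6 had every one called higher and 2 had every one called lower. Another 7 had some called and some not, and 5 had none called. Called probe sets of the same member never pointed in opposite directions. The matching shares over all genes with several probe sets were not counted, so this agreement has no background beside it. Probe sets of a gene can differ in the transcript ends they target, and probe sets ending in _s_at or _x_at may also bind related transcripts.

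Measured subunits of the chaperonin TRiC were mostly near 0, and CCT6A had the largest difference among them. The counts and medians here leave out the subunit TCP1, which appears only on probe sets that also list SNORA29. Those probe sets were higher in high glucose by 1.66-fold, 2.25-fold and 2.30-fold, but their signal cannot be assigned to a single gene. Of 7 measured subunits 2 were higher, 0 lower and 5 did not pass, beside 24.3% higher and 33.3% lower among all genes. The median of the measured subunits was 0.14 log2 units. That median was 0.22 without high glucose replicate 1 and 0.082 without high glucose replicate 2, and 0.32 after quantile normalization and 0.31 after median centring. CCT6A, the zeta subunit, read 3345 and 3953 in high glucose, against 1707 and 2088 in low glucose. Its arrays did not overlap, and the rise was 0.95 ± 0.11 log2 units (SE, adjusted p = 2.9e-04), with a second probe set at 0.98. CCT8, the theta subunit, rose by 0.35 ± 0.08 log2 units (SE, adjusted p = 0.0069).

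The brightest probe sets of the remaining measured subunits lay at 0.21 for CCT2, 0.14 for CCT4, 0.11 for CCT3, -0.02 for CCT7 and -0.19 for CCT5. None of these passed. For CCT2 a dimmer probe set did pass, at 0.43 log2 units. For CCT7 the 95% confidence interval ran from -0.20 to 0.15. The count depends on scaling, since quantile normalization called 6 of the 7 subunits higher and median centring 5, CCT5 being the exception in both and CCT7 in the second. Among all genes the shares called higher were 25.6% after quantile normalization and 33.1% after median centring. The difference between CCT6A and the other measured subunits was not tested.

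Prefoldin, the cofactor that captures actin and tubulin as they leave the ribosome, moved unevenly. Over 5 measured subunits 2 were higher, 1 was lower and 2 did not pass, beside 24.3% higher and 33.3% lower among all genes. The prefoldin median was 0.52 log2 units, or 0.32 without high glucose replicate 1 and 0.28 without low glucose replicate 2. PFDN4 read 2847 and 3343 in high glucose, against 1510 and 1487 in low glucose. That was a 2.06-fold rise without overlap (adjusted p = 3.9e-05), while a much dimmer PFDN4 probe set stood at 0.12 and did not pass. VBP1, another prefoldin subunit, rose by 0.52 ± 0.07 log2 units (SE, adjusted p = 4.3e-04). PFDN5, a subunit also known to bind MYC, fell by 0.51 ± 0.07 log2 units (SE, adjusted p = 8.0e-04), and its second probe set fell by the same 0.51.

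PFDN1 read 1383 and 893 in high glucose, against 918 and 558 in low glucose. Its arrays overlapped, and the replicates within a condition lay farther apart than those of any other measured member, so that a difference of 0.64 ± 0.25 log2 units (SE) did not pass (adjusted p = 0.064). It was called without high glucose replicate 2, at 0.95, and without low glucose replicate 1, at 0.995, and after median centring, at 0.81. PFDN2 stood at 0.11 and did not pass. Subunits that assemble into a single complex therefore ranged between -0.51 and 1.04 log2 units.

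**Figure D4:**
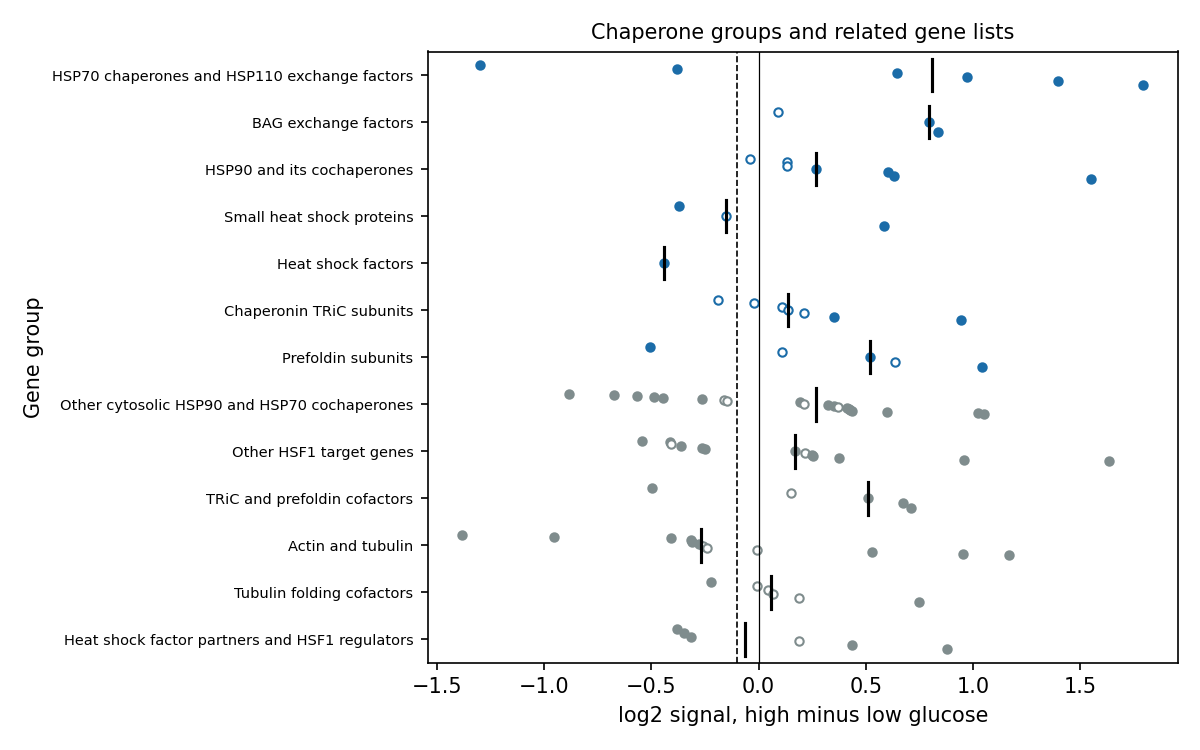
Difference in log2 signal, high minus low glucose (x axis), of each gene in the 7 chaperone groups (blue) and 6 related lists (grey). Filled points passed an adjusted p of 0.05, short black bars are group medians and the dashed line is the median of all genes. The HSP70 and HSP110 group has a median of 0.81 with members on both sides of 0, and actin and tubulin a median of -0.27.

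Related genes outside the list were counted in the same fit, and near-identical copies among them, such as the tubulins, may share signal. Their counts stand beside 24.3% higher and 33.3% lower among all genes. Of 20 other genes listed as cochaperones of HSP90 and HSP70, 10 were higher and 6 lower (median 0.27). The lower genes include TSC22D4, which is dim and not an established cochaperone. It read 76.5 and 41.9 in high glucose, against 124 and 88.2 in low glucose. SUGT1, a further HSP90 partner, rose 2.07-fold, and CACYBP, a ubiquitin ligase adaptor, rose 2.03-fold. ST13, an HSP70 cochaperone known as HIP, fell 1.60-fold in high glucose, and PIH1D1, of the R2TP complex, fell 1.40-fold. Of 13 other HSF1 targets 5 were higher and 5 lower (median 0.17). HSPE1, the mitochondrial co-chaperonin, had 4031 ± 140 signal units in high glucose against 1301 ± 56.4 in low glucose (SD, n = 2 each). HSPD1, which forms the mitochondrial chaperonin with HSPE1, stood at 0.25 and did not pass. TRA2A, a splicing factor, rose 1.94-fold. DNAJB1, the main inducible HSP40, fell by 0.26 log2 units, SERPINH1, the collagen chaperone HSP47, fell 1.46-fold, and IER5, an activator of HSF1, fell 1.33-fold.

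Among 5 measured cofactors of TRiC and prefoldin, 3 rose and 1 fell. TXNDC9, a phosducin-like protein that binds TRiC, rose 1.64-fold, URI1, a prefoldin-like scaffold, rose 1.59-fold, and PDCL, another phosducin-like protein, rose 1.42-fold. UXT, a prefoldin-like partner of URI1, fell 1.41-fold in high glucose. Of 12 actin and tubulin genes, the main substrates of TRiC, 3 were higher and 6 lower. TUBB2A read 3739 ± 107 in high glucose against 1665 ± 3.85 in low glucose, while TUBB2B read 443 ± 39.3 in high glucose against 1153 ± 52.8 in low glucose (SD, n = 2 each). TUBG1, gamma-tubulin of the centrosome, rose 1.93-fold and TUBA1A fell 1.94-fold. Of 6 tubulin folding cofactors 1 rose and 1 fell: ARL2, a small GTPase that regulates them, rose 1.68-fold, and TBCC fell 1.17-fold. TBCA and TBCD stood at 0.19 and 0.07 log2 units and did not pass.

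**Figure D5:**
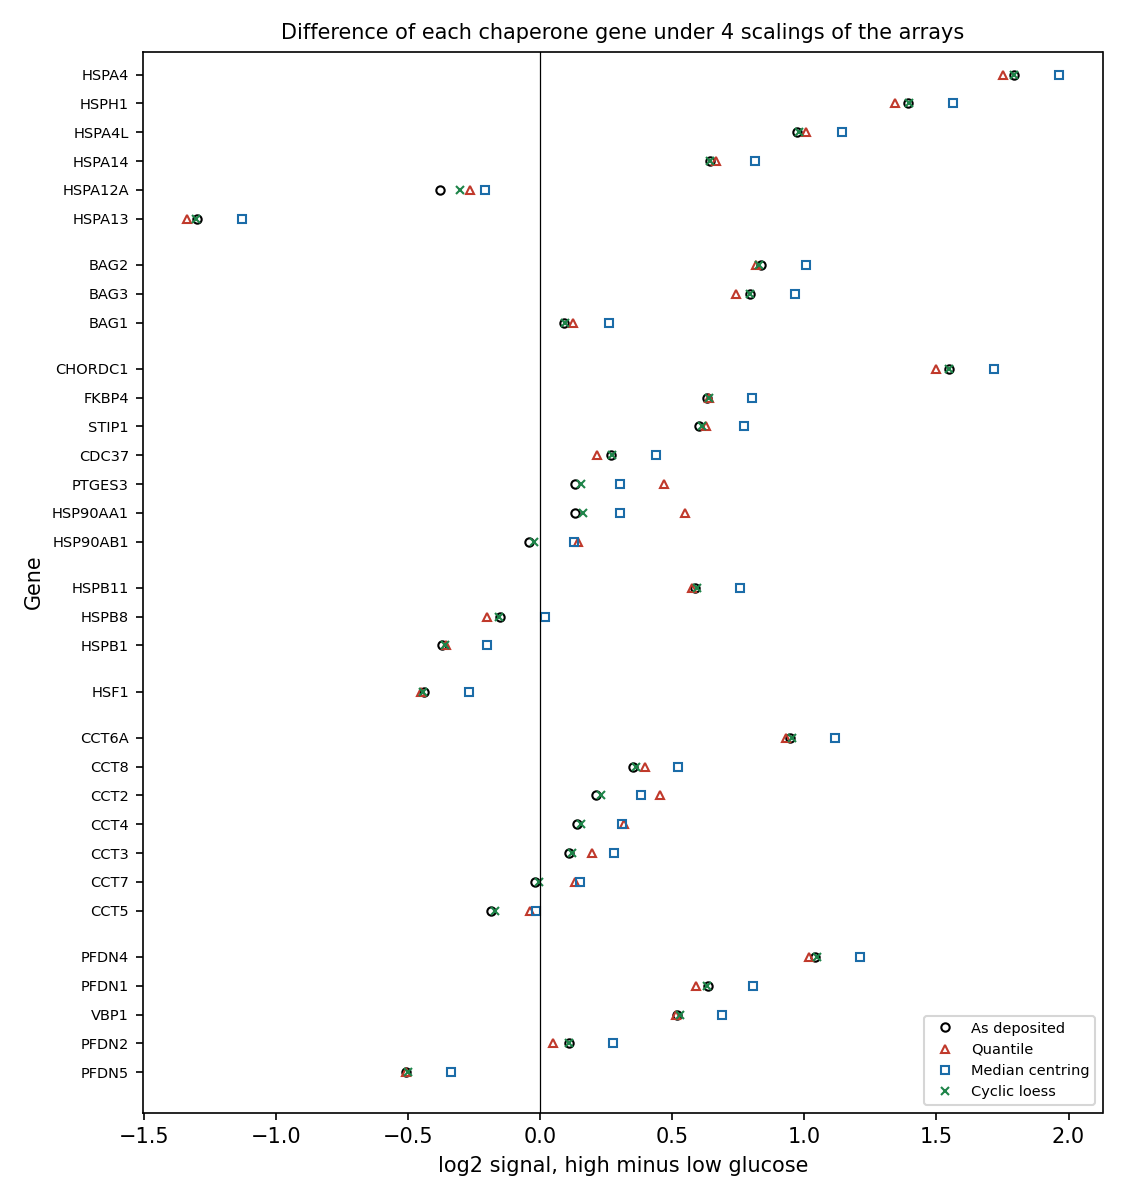
Difference in log2 signal, high minus low glucose (x axis), of each measured gene as deposited and after quantile normalization, median centring and cyclic loess. Median centring moves the points to the right, quantile normalization moves HSP90AA1 to 0.55 and PTGES3 to 0.47, and HSPA4, CHORDC1, HSPH1 and HSPA13 keep their sign in all 4.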

How the data were processed

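Total RNA of HEK293 cells was labelled with biotin and hybridised to single-colour Affymetrix arrays, per the labels' protocols. The authors deposited 1 signal intensity per probe set and array on a linear scale. GCOS, the Affymetrix array software, is named in the submitters' processing notes, and no other step is described there. Equal 2% trimmed means show that the deposited intensities were already scaled, which hides any shift common to most transcripts. The number of arrays limits the precision.

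The table held 54675 probe sets. Its annotation gave 1 gene to 41097, several to 1801 and none to 11777, and only the first kind was named. Control probe sets (62) were left out. Signals were log2-transformed without a pseudocount, probe sets were kept at or above the median mean signal (32.9), and the brightest probe set stood for a gene. limma 3.58.1 in R 4.3.3 compared 2 high with 2 low glucose arrays (lmFit, eBayes with an intensity trend, two-sided, Benjamini-Hochberg over all 12242 genes). A second fit over all 27307 probe sets kept served for further probe sets. The gene test was tested on simulated data, in which far fewer genes changed than were called here and array errors were independent.

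The members and lists were chosen with earlier results of these data known. Every member is named. Signals on every array are given for members that passed with at least 1.5-fold, for members whose probe sets were called in opposite directions (none were), and for HSF1, HSPB1, HSP90AA1 and HSP90AB1. HSPA8, HSPA1A, HSPA1B and TCP1 were to be given too but appear here only on probe sets listing several genes, and HSF2 was not analysed here. Array signals of PFDN1, HSPA2, HSPA6 and some dimmer probe sets were added once their values were known. From each related list up to 4 genes with the smallest p are named, with DNAJB1, HSPE1 and HSPD1, and TSC22D4 was added once its values were known. Alternatives covered normalization, filter, a pseudocount of 16, trend, choice of probe set, a replicate block and leaving out each array.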

Additional observations from a re-analysis of the deposited data

Results flagged for a closer look

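Among signals that the comparison of single-gene probe sets did not use, 4 were higher in high than in low glucose by more than any measured member. The poly-A spike probe sets, which measure RNA added before labelling, differed by a median of 1.94 log2 units. The other 3 are probe sets whose annotation lists both HSPA1A and HSPA1B, in 1 case with HSPA1L as well, so that their signal cannot be assigned to 1 gene. The probe set that also lists HSPA1L read 5218 and 6473 in high glucose, against 610 and 649 in low glucose, a log2 difference of 3.21. Another read 4288 and 5121 in high glucose, against 808 and 828 in low glucose, a difference of 2.52. The last read 298 and 244 in high glucose, against 64.0 and 49.9 in low glucose, a difference of 2.25. All 3 passed the fit over 27307 probe sets. Each differed by more than the spike median, which rests on dim signals in low glucose.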

How the results depend on the processing

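Of 438 recomputed differences of single members, 385 kept their direction and their side of the threshold, and 12 changed sign. The filter, trend and replicate block settings keep the difference of the brightest probe set as it was, so no sign could change there. The same tally was not made over all genes. With the direction kept, 13 lost a call and 28 gained one. Among those that changed sign, HSP90AB1 and CCT7 were also called after quantile normalization (adjusted p = 0.014 and 0.018). The calls lost were those of HSPA12A, CDC37, HSPB1 and HSPB11. Quantile normalization moved the member median to 0.46 and median centring to 0.41, and median centring left 3 members called lower. Without _x_at and _s_at probe sets only 23 members remained measured, with 8 higher and 3 lower. Among all 9457 genes of that setting 2133 were higher and 2989 lower. Values that changed sign belonged to genes that did not pass as deposited: HSP90AB1 and CCT7 after quantile normalization (0.14 and 0.13) and median centring (0.13 and 0.15), HSPB8 after median centring (0.017), and HSP90AB1 and BAG1 with the mean of probe sets (0.14 and -0.16). BAG1 also stood at -0.16 without _x_at and _s_at probe sets. Leaving out each array in turn gave member medians of 0.17 to 0.32. Ranges were -0.053 to 0.32 for HSP90AA1, -0.12 to 0.037 for HSP90AB1 and -0.084 to 0.044 for CCT7. CCT2 (0.32) and CCT4 (0.22) were called only without high glucose replicate 1 among these 4 fits, CCT5 (-0.26) without high glucose replicate 2 and HSPB8 (-0.21) without low glucose replicate 1. There the lone array of a condition is assumed to vary like the others. With the replicate block 17 members were higher and 5 lower, beside 2959 higher and 4024 lower among all 12242 genes. PFDN1 (adjusted p = 2.2e-04), CCT2 (0.030) and CCT5 (0.0498) were called there while HSPA12A was not (0.054). The labels name no pairing, and deviations of arrays with the same number had a correlation of -0.004 over all genes measured. Whether the arrays are paired cannot be settled from 2 arrays per condition. The cause of these changes was not tested. Signals near or below 32.9 limit HSPA2 and HSPA6.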

Other observations

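Further probe sets list a member beside other genes, and no gene is named from them. All 3 probe sets listing TCP1 with SNORA29 were higher in high glucose, by 1.66-fold, 2.25-fold and 2.30-fold. The first of these read 4985 and 5321 in high glucose, against 3090 and 3109 in low glucose. Of 4 probe sets listing HSPA8 with SNORD14C and SNORD14D, 3 were called lower, with differences between -0.24 and -0.28, and the other stood at -0.16 without passing. Signals of these 4 lay between 7403 and 8717 in high glucose and between 8411 and 10087 in low glucose. Of 4 listing PFDN6 with MIR6834, 2 were higher, by 0.84 and 0.62, and the dimmer 2 did not pass, at 0.39 and -0.16. The probe set listing CHORDC1 with NAALAD2 was higher by 1.09 log2 units.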
